A study of Homo sapiens with 12 samples.

Results

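The genes of the IκB kinase (IKK) complex and of the kinases around it were followed through the TNF-α response of HL-60/S4 cells. The set was defined by gene symbol and held 10 of the 58288 genes in the count table: CHUK, IKBKB and IKBKG of the IKK complex, the IKK-related kinases IKBKE and TBK1, MAP3K7 and its partner TAB2, MAP3K8, MAP3K14 and RIPK2. All 10 passed the filter on low counts in every comparison. IKBKE was the gene that rose most with TNF-α in both cell types, and MAP3K8 and MAP3K14 rose in granulocytes while neither passed the test in promyelocytes.

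HL-60/S4 is an established human promyelocytic leukemia cell line, and the cells came from 1 seed lot at 8 passages. RNA was sequenced from 12 libraries, each from a flask of its own, in 4 groups of 3. Undifferentiated promyelocytes received TNF-α at 16 ng/mL or vehicle (water) for 2 h, and so did granulocytes made by adding all-trans retinoic acid (ATRA) at 1 µM for 4 days. Before this treatment the granulocytes were moved to fresh medium that again held ATRA at 1 µM. All groups were in growth medium supplemented with calcium. The cell types were treated in separate experiments and at different cell densities, so cell type and experiment cannot be told apart, and p-values measure the spread between flasks of 1 line.

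The libraries held between 22829189 and 31895061 read pairs assigned to genes (median 28233190), and a single gene of the set had between 283 and 10458 of them. Markers fixed for granulocytic differentiation, such as ITGAM and NCF1, summed to 182 to 190 CPM (counts scaled to a common library total) in vehicle-treated promyelocytes and to 5277 to 5582 CPM in vehicle-treated granulocytes. With TNF-α the same 9 genes summed to 324 to 344 CPM and to 6169 to 6581 CPM. The 6 promyelocyte genes, MPO among them, summed to 7782 to 8620 CPM and to 2247 to 2465 CPM in the vehicle groups, and to 6400 to 7295 CPM and 2181 to 2387 CPM with TNF-α. Genes of macrophages and monocytes reached at most 4.73 CPM in promyelocytes, between 49.1 and 51.3 CPM in vehicle-treated granulocytes and between 30.1 and 33.8 CPM with TNF-α. In granulocytes nearly all of this was CSF1R (48.9 to 51.1 CPM with vehicle and 29.7 to 33.6 CPM with TNF-α), while CD14 was at most 0.430 CPM in any library, CD163 and MRC1 were lower still and MARCO was at 0 throughout. T, B and erythroid cell genes summed to between 4.11 and 6.11 CPM in promyelocytes and between 11.35 and 15.2 CPM in granulocytes, with HBB at 0. Fibroblast and epithelial genes stayed at or below 0.757 CPM in sum, with COL3A1 at 0. The part of these markers in the results was not tested. Among TNF-α promyelocytes, replicate 1 differed more from replicates 2 and 3 (chi-square per gene 12.9 and 11.1) than these did from each other (6.80), and results that change without it are given beside their values.

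The IKK complex is the switch through which TNF-α reaches the transcription factor NF-κB. CHUK (IKKα) and IKBKB (IKKβ) are its kinases and IKBKG (NEMO) is its scaffold, which binds the ubiquitin chains built at the TNF receptor. Active IKKβ phosphorylates the inhibitor IκBα, which is then degraded and frees NF-κB. Most of this regulation acts on the proteins, and only transcript levels were measured here.

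The stretches just upstream of a transcription start of IKBKE, MAP3K8 and MAP3K14 are shown because these genes had the largest responses of the set in granulocytes. Each is the stretch of 250 bases before the transcription start in RefSeq (GRCh38.p14), written 5′ to 3′ on the strand of the gene, and capitals mark a match to the κB consensus, the binding sequence of NF-κB. The IKBKE stretch lies at chr1:206470226-206470475 on the + strand, that of MAP3K8 at chr10:30433771-30434020 on the + strand, and that of MAP3K14 at chr17:45317021-45317270 on the - strand.
IKBKE: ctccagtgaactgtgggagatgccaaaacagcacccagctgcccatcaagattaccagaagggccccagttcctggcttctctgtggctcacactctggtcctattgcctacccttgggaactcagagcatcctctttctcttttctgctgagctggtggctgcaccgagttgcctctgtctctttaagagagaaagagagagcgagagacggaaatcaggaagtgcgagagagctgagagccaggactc
MAP3K8: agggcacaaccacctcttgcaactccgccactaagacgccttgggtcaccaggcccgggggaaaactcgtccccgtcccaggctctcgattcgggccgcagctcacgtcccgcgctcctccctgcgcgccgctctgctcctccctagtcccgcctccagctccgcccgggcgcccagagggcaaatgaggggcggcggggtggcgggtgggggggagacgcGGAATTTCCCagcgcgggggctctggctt
MAP3K14: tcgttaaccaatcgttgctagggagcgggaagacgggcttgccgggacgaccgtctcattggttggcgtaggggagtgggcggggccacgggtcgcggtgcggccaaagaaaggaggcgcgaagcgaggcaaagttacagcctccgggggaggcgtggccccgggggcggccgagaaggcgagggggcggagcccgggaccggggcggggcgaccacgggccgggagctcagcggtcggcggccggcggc

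The MAP3K8 stretch held 1 κB match, which begins 29 bases before the start, and the IKBKE and MAP3K14 stretches held none. GC content was 54.0% in the IKBKE stretch, 71.2% in that of MAP3K8 and 73.6% in that of MAP3K14. RefSeq promoters (250 bases before to 50 after each start) were matched for 8 of the 10 genes, and 3 motifs were searched on both strands without regard to overlap between motifs. The background shares below are per promoter, while a gene is named where any of its promoters held a match. IKBKG has 4 start sites, MAP3K8 has 3 and TAB2 has 2, so genes named cannot be compared with these shares. The κB consensus was present in 11.3% of the 35116 promoters and, among the 8 genes, in those of TAB2 and MAP3K8. The AP-1 motif TGANTCA was in 7.71% of promoters and in those of IKBKG and MAP3K8, and the ETS motif CCGGAAGT in 4.14% and in those of CHUK, IKBKG, TBK1 and MAP3K7. The AP-1 match of MAP3K8 and a further κB match lie at its other 2 start sites. A match is a description of the sequence and not a measured binding site.

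The question put to each gene was whether its transcript level changed with TNF-α within each cell type, and whether the change differed between the cell types. Each cell type was tested alone with edgeR's quasi-likelihood test, and a gene is called when its Benjamini-Hochberg adjusted p, taken over all genes tested, is under 0.05. In promyelocytes 4 of the 10 genes rose (CHUK, IKBKE, TBK1 and RIPK2), none fell and 6 were not called, and the median log2 fold change of the 10 was 0.20 against -0.01 over all genes. Of the 16250 genes tested, 14.8% were called, 8.15% as higher and 6.65% as lower. In granulocytes 8 of the 10 rose (CHUK, IKBKG, IKBKE, TBK1, TAB2, MAP3K8, MAP3K14 and RIPK2), none fell, and IKBKB and MAP3K7 were not called, with a median of 0.30 against -0.00470. There, 49.2% of the 16944 genes tested were called, 24.4% as higher and 24.8% as lower. All TNF-α libraries lay above all vehicle libraries for 7 of the 10 genes in promyelocytes, against 13.7% of all genes, and for 9 of the 10 in granulocytes, against 28.4%. No gene of the set had all TNF-α libraries below its vehicle libraries, against 17.1% of all genes in promyelocytes and 26.7% in granulocytes.

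**Figure D1:**
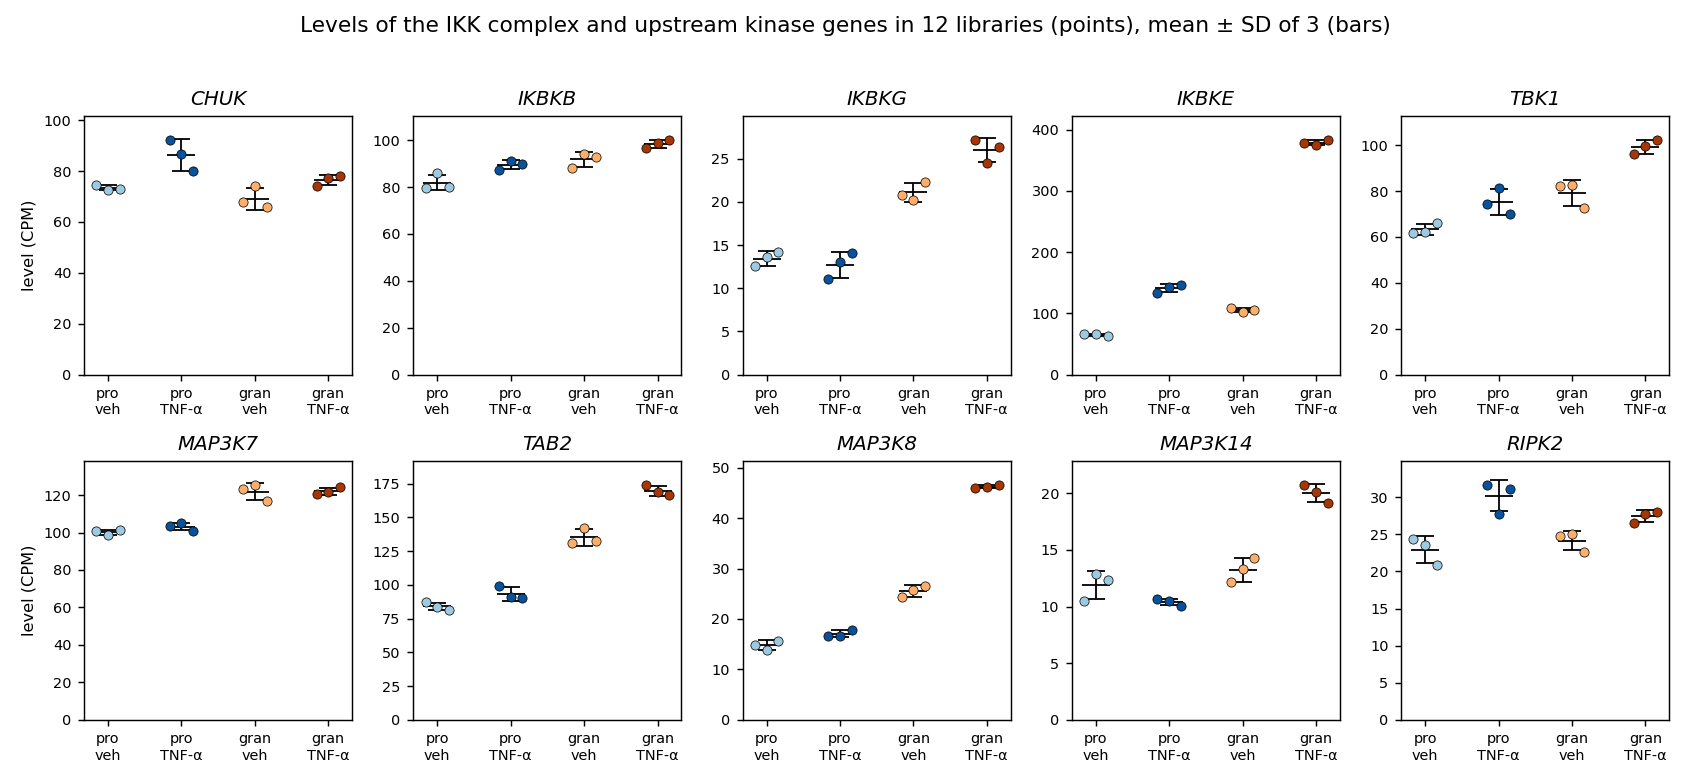
Level of each of the 10 genes in CPM (y axis, linear and starting at 0) in the 4 groups, where pro is promyelocytes, gran is granulocytes and veh is vehicle. Each point is 1 library, the long dash is the mean of 3 and the bars are the SD. The TNF-α granulocyte libraries stand clear of the other 9 for IKBKE (374.7 to 383.7 CPM), MAP3K8 and MAP3K14. They also lie above the other 9 for TAB2, TBK1, IKBKG and IKBKB, while MAP3K7 hardly moves with TNF-α.

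Only a part of the difference between the cell types passed a test of the difference itself. The interaction, the granulocyte log2 fold change minus that of promyelocytes in a fit of all 12 libraries, was called for 4 of the 10 genes, all higher: IKBKG, IKBKE, MAP3K8 and MAP3K14. In a fit of all 12 libraries IKBKE changed by 1.11 in promyelocytes and 1.84 in granulocytes, against 1.14 and 1.83 when each cell type was fitted alone. An interaction can therefore depart from the gap between the changes printed for the 2 cell types. The median interaction of the 10 was 0.13, against 0.03 over all genes. Over all 18124 genes tested 24.0% were called, 14.1% as higher and 9.88% as lower. That split depended on the scaling, with 2561 genes higher and 1790 lower on TMM and 2128 higher and 2266 lower on DESeq2's size factors. For the other 6 genes the interaction ranged from -0.21 for RIPK2 to 0.18 for TAB2 and was not called.

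**Figure D2:**
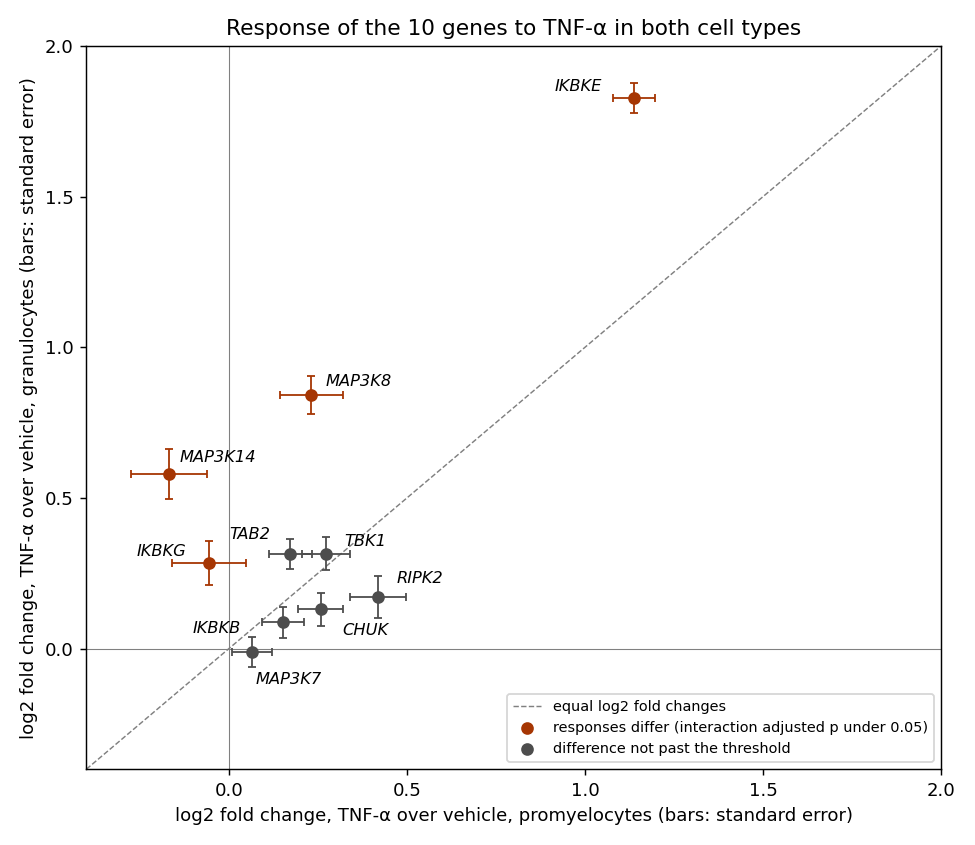
Log2 fold change of TNF-α over vehicle in promyelocytes (x axis) against that in granulocytes (y axis) for the 10 genes, with standard errors as bars and equal responses on the dashed line. IKBKE (1.14 and 1.83), MAP3K8, MAP3K14 and IKBKG, drawn in red, are the 4 genes whose responses differed by the interaction test, and all lie above the line.

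The kinase subunit gene CHUK (chromosome 10, positions 100188298 to 100229619 of hg38, - strand) had 74.5, 72.7 and 73.0 CPM in vehicle-treated promyelocytes and 92.4, 86.9 and 79.96 CPM with TNF-α. The groups did not overlap, and CHUK rose by a log2 fold change of 0.26 ± 0.0631 (SE, 3 libraries against 3, edgeR adjusted p = 0.0075). In granulocytes CHUK had 67.7, 74.0 and 65.8 CPM with vehicle and 74.3, 77.1 and 77.9 CPM with TNF-α. This increase was 0.13 ± 0.0549 (edgeR adjusted p = 0.0474), and the lowest TNF-α library stood just above the highest vehicle library. The interaction was -0.09 ± 0.0842 and was not called (adjusted p = 0.493), and with GC and length trends removed it was 0.04. On the same strand 37 exonic bases of CHUK overlap ERLIN1.

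IKBKB (chromosome 8, 42271302 to 42332653, + strand), the kinase chiefly responsible for IκBα phosphorylation, was not called in either cell type although its groups did not overlap. Its levels were 79.8, 85.8 and 80.2 CPM with vehicle and 87.4, 91.1 and 89.99 CPM with TNF-α in promyelocytes, a log2 fold change of 0.15 ± 0.0593 (edgeR adjusted p = 0.0979). After removal of the trends of each library along GC content and exon length, the change was 0.19 and was called (adjusted p = 0.0112). In granulocytes the levels were 88.2, 94.3 and 92.9 CPM with vehicle and 96.8, 98.6 and 100.2 CPM with TNF-α, a change of 0.09 ± 0.0508 (adjusted p = 0.158).

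IKBKG (chromosome X, 154541199 to 154565046, + strand), the scaffold, was not called in promyelocytes. It had 12.6, 13.7 and 14.2 CPM with vehicle and 11.1, 13.01 and 14.1 CPM with TNF-α, overlapping groups with a log2 fold change of -0.05 ± 0.104 (edgeR adjusted p = 0.778), which was 0.03 without TNF-α replicate 1 (adjusted p = 0.906). In granulocytes it had 20.8, 20.2 and 22.3 CPM with vehicle and 27.2, 24.5 and 26.4 CPM with TNF-α, an increase of 0.28 ± 0.0719 (adjusted p = 0.00115). With GC content and length trends removed the granulocyte change was 0.13 and was not called (adjusted p = 0.0998). The interaction, 0.38 ± 0.124 (adjusted p = 0.0267), was also a narrow call. It was not called on DESeq2's size factors (0.0550), with DESeq2 (0.0839), without the filter (0.123) or with GC and length trends removed (0.440). The same held when any 1 of 7 libraries was left out: granulocyte vehicle replicates 1 and 2 (0.0642 and 0.0725), granulocyte TNF-α replicates 1 and 3 (0.0682 and 0.0503), promyelocyte vehicle replicates 2 and 3 (0.0564 and 0.0653) or promyelocyte TNF-α replicate 1 (0.0904).

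Read pairs of IKBKG can also align to its near-identical copy IKBKGP1, and only the primary alignment of such a pair was counted, so the values of IKBKG are uncertain. IKBKGP1 took between 31.0% and 39.1% of the counts of both together. With both counts added, the interaction was 0.31 (edgeR adjusted p = 0.0506), a comparison chosen after the data had been seen.

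IKBKE (chromosome 1, 206470476 to 206496889, + strand) encodes IKKε, an IKK-related kinase that is inducible and acts with TBK1 in antiviral signaling toward the interferon regulatory factors. In promyelocytes it had 65.6, 66.7 and 63.2 CPM with vehicle and 134.0, 142.7 and 146.3 CPM with TNF-α. Every TNF-α library was at more than double the level of every vehicle library, and the log2 fold change was 1.14 ± 0.0591, or 2.20-fold (edgeR adjusted p = 1.37e-11). In granulocytes IKBKE began higher, at 109.2, 102.4 and 105.3 CPM, and reached 378.0, 374.7 and 383.7 CPM. This increase was 1.83 ± 0.0493, or 3.55-fold (adjusted p = 9.43e-28), and the interaction was 0.73 ± 0.0729 (edgeR adjusted p = 1.99e-08). Increases of at least 1 on the log2 scale were called for 1.94% of genes tested in promyelocytes and 6.07% in granulocytes, and IKBKE was the 1 gene of the set among them. The TNF-α granulocytes were the highest of the 4 groups and the vehicle-treated promyelocytes the lowest.

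TBK1 (chromosome 12, 64451880 to 64502108, + strand), the close relative of IKKε that cells express without a stimulus, rose far less. It had 61.8, 62.0 and 66.1 CPM with vehicle and 74.6, 81.2 and 70.0 CPM with TNF-α in promyelocytes (log2 fold change 0.27 ± 0.0665, edgeR adjusted p = 0.00744). Without promyelocyte TNF-α replicate 2, its highest library, the change was 0.22 and was not called (adjusted p = 0.0567). In granulocytes TBK1 had 82.3, 82.6 and 72.5 CPM with vehicle and 96.3, 99.4 and 102.4 CPM with TNF-α, an increase of 0.32 ± 0.0546 (adjusted p = 7.78e-06). The interaction was 0.08 ± 0.0884 and was not called (adjusted p = 0.57), while with GC and length trends removed it was 0.20 and was called (adjusted p = 0.0299).

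Levels of different genes were compared per kilobase of exon length (CPM per kb), and on that scale the make-up of the IKK kinase family shifted toward IKBKE. Of the summed per-length level of CHUK, IKBKB, IKBKE and TBK1, IKBKE made up 35.0% ± 0.821 (SD, n = 3) in vehicle-treated promyelocytes and 50.1% ± 2.04 with TNF-α. In granulocytes its share was 43.95% ± 1.66 with vehicle and 70.6% ± 0.457 with TNF-α. TBK1 went from 27.1% to 21.3% of the sum in promyelocytes and from 26.2% to 14.75% in granulocytes. CHUK went from 21.6% to 16.8% and from 15.7% to 7.80%, and IKBKB from 16.3% to 11.8% and from 14.1% to 6.80%. These smaller shares stand beside CPM levels of TBK1, CHUK and IKBKB that were no lower with TNF-α. The per-length ratio of IKBKE to TBK1 was 1.30 ± 0.0824 and 2.36 ± 0.228 in promyelocytes without and with TNF-α, and 1.68 ± 0.134 and 4.79 ± 0.124 in granulocytes. The per-length ratio of CHUK to IKBKB stayed between 1.05 and 1.56 in all libraries. These orders rest on the division by exon length. Without it IKBKE made up 22.96% of the sum in vehicle-treated promyelocytes, below IKBKB (28.9%) and CHUK (25.9%), and 35.96%, 30.58% and 58.0% in the TNF-α promyelocytes, vehicle-treated granulocytes and TNF-α granulocytes, where it was the highest of the 4. The mean share of CHUK then lay below that of IKBKB in every group. In TNF-α promyelocytes the libraries overlapped (20.7 to 23.8% for CHUK and 22.5 to 23.3% for IKBKB).

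**Figure D3:**
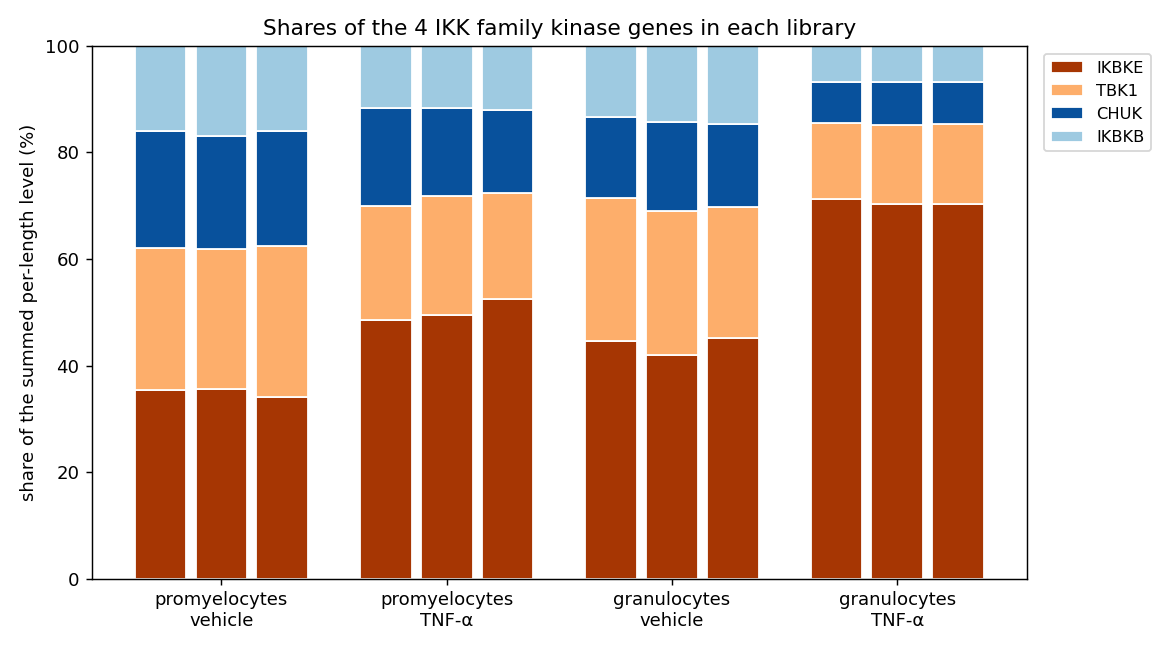
Share (%) of IKBKE, TBK1, CHUK and IKBKB in their summed per-length level, stacked to 100, with 1 bar per library and 3 libraries per group. The IKBKE part covers 34.1 to 35.6% in vehicle-treated promyelocytes and 70.4 to 71.2% in TNF-α granulocytes.

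MAP3K7 (chromosome 6, 90513573 to 90587045, - strand) encodes TAK1, the kinase that activates IKKβ at the TNF receptor. It was called in neither cell type. In promyelocytes it had 100.6, 98.7 and 101.1 CPM with vehicle and 103.4, 105.1 and 101.0 CPM with TNF-α (log2 fold change 0.07 ± 0.0561, edgeR adjusted p = 0.498). In granulocytes it had 123.1, 125.5 and 116.8 CPM with vehicle and 120.7, 121.4 and 124.1 CPM with TNF-α (-0.01 ± 0.0493, adjusted p = 0.879). The groups overlapped in both cell types.

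TAB2 (chromosome 6, 149218641 to 149411613, + strand), the adaptor that ties TAK1 to ubiquitin chains, rose in granulocytes. Its levels there were 130.6, 142.0 and 132.6 CPM with vehicle and 174.1, 168.5 and 166.7 CPM with TNF-α, an increase of 0.32 ± 0.0491 (edgeR adjusted p = 1.26e-06). In promyelocytes the levels were 87.0, 83.9 and 81.6 CPM with vehicle and 99.2, 90.8 and 89.99 CPM with TNF-α, a change of 0.17 ± 0.0601 that was not called (adjusted p = 0.061). It was called there with DESeq2 (adjusted p = 0.0453) or without promyelocyte TNF-α replicate 3 (edgeR adjusted p = 0.0431). The interaction was 0.18 ± 0.0767 (adjusted p = 0.0886), and it was called without promyelocyte TNF-α replicate 1 (0.0373) or with GC and length trends removed (0.0141).

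MAP3K8 (chromosome 10, 30433937 to 30461833, + strand) encodes TPL2, which NF-κB1 p105 holds inactive and which drives the MEK and ERK kinases once IKKβ has freed it. In vehicle-treated promyelocytes it had 14.9, 13.8 and 15.7 CPM, and with TNF-α 16.7, 16.7 and 17.8 CPM. The groups did not overlap, but the change of 0.23 ± 0.0883 was not called (edgeR adjusted p = 0.0878). In granulocytes MAP3K8 had 24.3, 25.7 and 26.6 CPM with vehicle and 46.1, 46.1 and 46.6 CPM with TNF-α. That increase was 0.84 ± 0.0620, or 1.79-fold (adjusted p = 3e-14), and the interaction was 0.65 ± 0.1 (edgeR adjusted p = 1.96e-05). TNIP2 (ABIN2), which binds MAP3K8 and stabilizes it, rose in granulocytes as well, from 29.9 ± 0.814 to 53.7 ± 2.35 CPM (0.83, adjusted p = 1.31e-14). In promyelocytes TNIP2 was at 26.1 ± 0.254 and 28.8 ± 2.90 CPM (0.16, adjusted p = 0.189), and the interaction for it was 0.70 (adjusted p = 4.75e-06). NFKB1, the source of p105, rose in both cell types, by 1.38 in promyelocytes and 2.02 in granulocytes (adjusted p = 2.77e-12 and 1.85e-28).

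MAP3K14 (chromosome 17, 45263121 to 45317040, - strand) encodes NIK, the kinase of the non-canonical pathway that activates CHUK. TRAF3 and the ubiquitin ligases BIRC2 and BIRC3 keep the NIK protein low in unstimulated cells. In promyelocytes MAP3K14 had 10.5, 12.8 and 12.3 CPM with vehicle and 10.7, 10.5 and 10.1 CPM with TNF-α (log2 fold change -0.17 ± 0.106, edgeR adjusted p = 0.337), with overlapping groups. In granulocytes it had 12.1, 13.3 and 14.3 CPM with vehicle and 20.8, 20.1 and 19.2 CPM with TNF-α, an increase of 0.58 ± 0.0828, or 1.49-fold (adjusted p = 2.65e-07). The interaction, 0.78 ± 0.13 (adjusted p = 4.95e-05), was close to that of IKBKE. Of its regulators, TRAF3 rose by 0.77 in promyelocytes and 2.33 in granulocytes (interaction 1.60, adjusted p = 2.06e-14), reaching 202 ± 7.05 CPM in TNF-α granulocytes from 39.8 ± 2.39 CPM. BIRC2 rose by 0.51 in promyelocytes and 0.35 in granulocytes. BIRC3 rose from between 1.36 and 1.80 CPM to between 69.3 and 76.1 CPM in promyelocytes, and from between 0.530 and 0.839 CPM to between 228 and 239 CPM in granulocytes.

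RIPK2 (chromosome 8, 89757747 to 89791063, + strand) encodes the kinase that links the peptidoglycan sensors NOD1 and NOD2 to the IKK complex. It was the gene of the set with the largest increase in promyelocytes after IKBKE, from 24.3, 23.6 and 20.9 CPM to 31.7, 27.8 and 31.1 CPM (log2 fold change 0.42 ± 0.0793, edgeR adjusted p = 0.000813). In granulocytes it had 24.8, 25.1 and 22.6 CPM with vehicle and 26.6, 27.8 and 28.0 CPM with TNF-α (0.17 ± 0.0692, adjusted p = 0.038). The interaction was -0.21 ± 0.106 and was not called (adjusted p = 0.163). NOD2 was barely detected, at 0 to 5 read pairs per library, and was not tested. NOD1 fell in both cell types, by 0.47 in promyelocytes and by 0.67 in granulocytes on the log2 scale.

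The granulocyte calls of CHUK and RIPK2 were narrow. Neither gene was called with DESeq2 (adjusted p = 0.0940 and 0.112), without the filter on low counts (0.107 and 0.0878) or in a fit of all 12 libraries (0.0546 and 0.0509). Nor was either called without granulocyte vehicle replicate 1 (edgeR adjusted p = 0.148 for CHUK and 0.0527 for RIPK2), vehicle replicate 3 (0.205 and 0.182), TNF-α replicate 2 (0.119 and 0.101) or TNF-α replicate 3 (0.103 and 0.0809).

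Between the vehicle groups, all granulocyte libraries lay above all promyelocyte libraries for 7 of the 10 genes, against 37.3% of the 18124 genes tested, and below them for none, against 37.1%. This difference was not tested and cannot be told apart from one between the experiments. The ratio of the granulocyte to the promyelocyte mean was 1.73 for MAP3K8, 1.62 for IKBKE, 1.60 for TAB2, 1.57 for IKBKG, 1.25 for TBK1, 1.22 for MAP3K7 and 1.12 for IKBKB. CHUK (0.942), MAP3K14 (1.11) and RIPK2 (1.05) had overlapping libraries.

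Per kilobase, IKBKE was the highest and MAP3K14 the lowest of the 10 genes in each of the 4 groups. In vehicle-treated promyelocytes the order of mean levels was IKBKE (17.2 CPM per kb), TAB2 (14), MAP3K7 (13.9), TBK1 (13.3), CHUK (10.6), IKBKB (8.00), RIPK2 (7.37), MAP3K8 (4.11), IKBKG (3.81) and MAP3K14 (2.03). Neighbours overlapped in range for TAB2 with MAP3K7, MAP3K7 with TBK1, IKBKB with RIPK2 and MAP3K8 with IKBKG. With TNF-α, promyelocytes had 37.2 CPM per kb of IKBKE, followed by TBK1 (15.8) and TAB2 (15.5), which overlapped. In vehicle-treated granulocytes IKBKE (27.9) was followed by TAB2 (22.5), MAP3K7 (16.9) and TBK1 (16.6), of which the last 2 overlapped. In TNF-α granulocytes no neighbours overlapped: IKBKE stood at 99.9 CPM per kb, TAB2 at 28.2, TBK1 at 20.9, MAP3K7 at 16.9 and MAP3K8 at 12.85. On this scale MAP3K8 stood above CHUK (11.03) and IKBKB (9.62), below which it lay in the other groups. In CPM, without division by length, MAP3K8 lay below both in all 4 groups (46.3 against 76.4 and 98.5 CPM in TNF-α granulocytes). Mean IKBKE (65.2 CPM) then lay below MAP3K7 (100.2), TAB2 (84.15), IKBKB (81.9) and CHUK (73.4) in vehicle-treated promyelocytes. In vehicle-treated granulocytes IKBKE (105.7 CPM) lay below TAB2 (135.1) and MAP3K7 (121.8).

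The 10 genes were then set beside the other genes of the pathway, in lists written with earlier results of these data known. Every count of called genes in these lists stands against 8.15% of all genes called as higher and 6.65% as lower in promyelocytes, and 24.4% and 24.8% in granulocytes, and no list was tested against other genes. As a check that TNF-α acted, 9 of 10 known NF-κB response genes rose in promyelocytes (median 3.61) and 10 of 10 in granulocytes (median 4.94). For the steps between receptor and kinases, 15 genes were tested. In promyelocytes 3 rose and 3 fell (median 0.04), and in granulocytes 8 rose and 2 fell (median 0.13). BIRC3 rose most in both, by 5.58 and 8.31, followed by BIRC2 in promyelocytes (0.51) and TRAF2 in granulocytes (0.85). TNFRSF1A, the receptor TNFR1, fell by 0.48 and by 0.41, and RBCK1 of the linear ubiquitin ligase fell by 0.28 in promyelocytes. TAB1 fell by 0.20 in promyelocytes and by 0.41 in granulocytes, and its interaction was not called (-0.18, edgeR adjusted p = 0.178).

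Among 11 tested adaptors and partners of TBK1, IKBKE, RIPK2 and MAP3K14, 3 rose and 3 fell in promyelocytes (median 0.08), and 6 rose and 3 fell in granulocytes (median 0.54). TANK, the scaffold of TBK1 and IKKε, rose by 1.24 in promyelocytes and 1.21 in granulocytes (edgeR adjusted p = 8.57e-10 and 9.68e-22), with an interaction of 0.01 (adjusted p = 0.965). TICAM1, the adaptor TRIF of toll-like receptor 3, rose by 1.87 and 2.43. STING1, the DNA-sensing adaptor that recruits TBK1, fell by 1.21 on the log2 scale in granulocytes, and its change in promyelocytes was -0.32 (adjusted p = 0.0115). TBKBP1, another TBK1 adaptor, fell by 0.59 in promyelocytes and rose by 0.55 in granulocytes, with an interaction of 1.17 (adjusted p = 4.97e-10).

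Of 11 tested brakes on IKK activity, 5 rose in promyelocytes with none lower (median 0.15), and 7 rose and 1 fell in granulocytes (median 0.22). TNFAIP3 (A20), which edits the ubiquitin chains that IKBKG binds, rose by 3.63 and 5.08. The deubiquitinase CYLD rose by 1.60 in promyelocytes and by 0.89 in granulocytes (interaction -0.67, edgeR adjusted p = 4.5e-07). TNIP1 rose by 0.74 and by 2.37 (interaction 1.67, edgeR adjusted p = 1.35e-13). PPM1B, a phosphatase, fell by 0.17 in granulocytes.

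Of 17 tested substrates of the kinases, 9 rose and 1 fell in promyelocytes (median 0.46), and 10 rose and 2 fell in granulocytes (median 0.37). NFKBIA (IκBα) led in both, with increases of 3.91 and 5.51, followed by NFKB2 in promyelocytes (3.85) and BCL3 in granulocytes (5.09). IRF5 fell by 0.90 and by 2.12, and MAP2K1, the MEK1 kinase downstream of MAP3K8, fell by 0.18 in granulocytes.

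Of 15 tested MAP3K and RIPK family kinases outside the set, none rose and 4 fell in promyelocytes (median -0.06), while 6 rose and 4 fell in granulocytes (median 0.10). MAP3K9 fell by 0.67 and MAP3K21 fell by 0.28 in promyelocytes. In granulocytes MAP3K6 rose by 0.92 and RIPK3 by 0.48, MAP3K12 fell by 1.61 and MAP3K3 fell by 1.08. MAP3K3 was also called in promyelocytes, where it fell by 0.24 (interaction -0.81, edgeR adjusted p = 2.63e-08). These log2 changes are from the same edgeR fits, and BIRC3, TNFAIP3, NFKBIA and RIPK1 each stand in 2 lists.

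**Figure D4:**
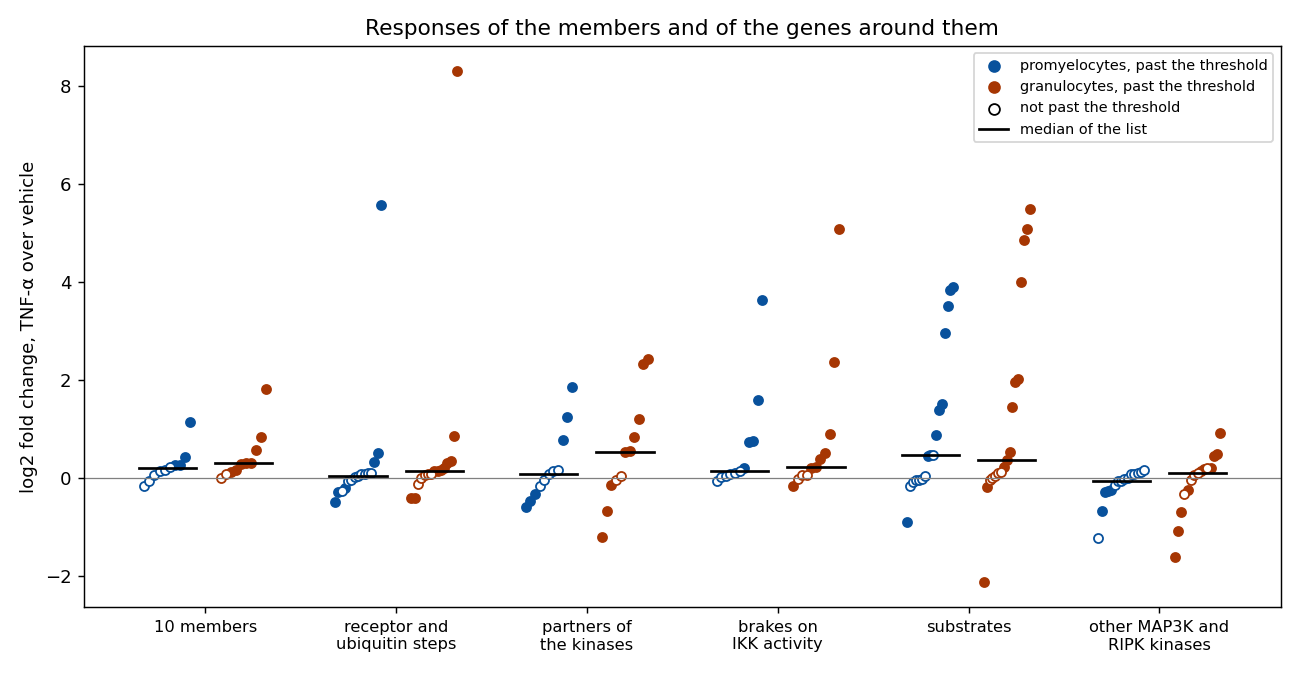
Log2 fold change of TNF-α over vehicle (y axis) for the 10 genes and for 5 pathway lists (x axis), with 1 point per gene, filled where called and open where not, and black lines at the medians. In the 10 genes the points spread from -0.17 to 1.14 in promyelocytes (blue) and from -0.01 to 1.83 in granulocytes (red), a narrower range than that of the substrates.

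For the 4 genes called in both cell types, the genes of most similar pattern were taken as those with the highest Pearson correlation of log2 CPM over the 12 libraries, among 11984 genes. The libraries form 4 groups and the correlations are given as descriptions, since they follow the group means. For IKBKE they were IFNGR2 (0.999), CXCL8 (0.996) and RASSF4 (0.995), and for TBK1 they were ARGLU1 (0.977), KBTBD2 (0.974) and ANKRD12 (0.974). CHUK was nearest to PANK3 (0.971), CCZ1 (0.943) and TAF2 (0.936), and RIPK2 to TRIM2 (0.925), PRKAR1B-AS1 (0.923) and C3AR1 (0.908).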

How the data were processed

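The authors sequenced libraries depleted of ribosomal RNA as read pairs, aligned them to hg38 with STAR 2.5.3a and counted pairs per gene with featureCounts 1.5.2 on GENCODE annotation. They deposited these raw counts without normalization. Per the file headers, counting was strand-specific and took primary alignments. Samples were grouped by title and labels. Symbols were matched for 57532 of 58288 identifiers. Library totals were 22829189 to 31895061 counts, and 3 libraries per group limit the precision.

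The main test was that of edgeR 4.0.16 under R 4.3.3, run within each cell type (TMM, filterByExpr with minimum count 10 and minimum total 15, quasi-likelihood test, Benjamini-Hochberg adjustment, threshold 0.05), and the difference of responses as the interaction in all 12 libraries. A standard error is the log2 fold change over the root of its F value. CPM use TMM sizes over all 12 libraries. No level was tested between cell types. Replicates of a group differed by more than sampling noise.

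Alternatives were DESeq2's size factors, no filter, DESeq2 1.42.0, a replicate block, removal of GC content and length trends (mgcv 1.9.3 offsets), 1 fit of all libraries, a threshold of 0.01, and each library left out. A sum of the counts of IKBKG and IKBKGP1 was tried once the data were known. The genes and lists were chosen with earlier results of these data known. Besides all 10 genes, the text names from each list at most the 2 largest increases and 2 largest decreases called in each cell type, partners of members, and the 3 genes of most similar pattern. Sequences were taken from RefSeq (GRCh38.p14). Protein sequences were not used here. Tables and plots were made with Python 3.11.15, pandas 2.3.3 and matplotlib 3.10.9.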

Additional observations from a re-analysis of the deposited data

Results flagged for a closer look

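The granulocyte response to TNF-α exceeded the promyelocyte response, by edgeR's interaction test over all 12 libraries, for 4 of the 10 genes. Over all 18124 genes tested, 14.1% were called as higher and 9.88% as lower, a split that depended on the scaling. The differences of log2 fold changes were 0.73 for IKBKE, 0.65 for MAP3K8, 0.78 for MAP3K14 and 0.38 for IKBKG. Those of IKBKE, MAP3K8 and MAP3K14 were called under all 6 alternatives with all libraries and with each of the 12 libraries left out. They ranged from 0.52 to 0.76, from 0.56 to 0.69 and from 0.56 to 0.87. Of the 6, the sum of IKBKG and IKBKGP1 leaves the counts of these 3 genes as they were and so does not test them. That of IKBKG was called in 1 of the 6 and with 5 of the 12 libraries left out. The 2 cell types were separate experiments, and the part of that in these differences cannot be told apart. Single libraries were not tested as outliers, since each group held 3.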

How the results depend on the processing

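Over 460 values of single genes under the alternatives, 412 kept direction and side of the threshold, 32 were no longer called, 7 became called and 9 changed sign, none of which was called before or after. The 460 include the sum of IKBKG and IKBKGP1, which leaves the counts of the other genes of the set as they were. The reversals were MAP3K7 with GC and length trends removed (-0.0550 in promyelocytes, 0.0531 in granulocytes and 0.1109 for the difference), in 1 fit of 12 libraries (0.0035 in granulocytes), and without granulocyte vehicle replicate 2 or TNF-α replicate 1 (range with 1 library left out -0.0383 to 0.0152); IKBKG in promyelocytes without TNF-α replicate 1 (range -0.1307 to 0.0332); and the differences of CHUK with the trends removed (0.0419) and of TBK1 without the filter (-0.0027). The cause was not tested. With the trends removed, the differences of IKBKB (-0.18, adjusted p = 0.0417), TBK1 (0.20, 0.0299) and TAB2 (0.21, 0.0141) were called and that of IKBKG (0.13, 0.440) was not, so that 6 genes were called in place of 4. The count of called genes ranged from 3 to 5 in promyelocytes, 6 to 8 in granulocytes and 3 to 6 for the difference, and from 3 to 5, 6 to 8 and 3 to 4 with 1 library left out. Without division by length the IKBKE share was 22.96% and 35.96% in promyelocytes and 30.58% and 58.0% in granulocytes, without and with TNF-α. Deviations of libraries with the same replicate number correlated at -0.295, -0.158 and -0.230 in promyelocytes and at -0.115, -0.0135 and -0.167 in granulocytes. Those of libraries with different numbers correlated between -0.129 and 0.317 in promyelocytes and between -0.0884 and 0.207 in granulocytes. Whether replicate numbers mark pairs was not tested. With the replicate block, 4 genes were called in promyelocytes, 6 in granulocytes, where CHUK (adjusted p = 0.0849) and RIPK2 (0.0673) were not, and 4 for the difference. Depth did not keep any of the 10 genes from being tested.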
